A study of Mus musculus with 9 samples.

Results

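The genes examined were the nuclear genes of the mitochondrial respiratory chain, taken by symbol: names beginning with Ndufa, Ndufb, Ndufc, Ndufs or Ndufv for complex I, Sdha to Sdhd for complex II, Uqcr for complex III, Cox4 to Cox8 for complex IV, and Atp5 for complex V. This rule gave 94 of the 24054 genes in the files, with 45 in complex I, 6 in complex II, 8 in complex III, 18 in complex IV and 17 in complex V. By the role assigned here, 21 were core subunits, 52 accessory subunits, 9 assembly factors and 8 tissue isoforms of another subunit. The other 4 were related proteins that share the name. The core class includes Cox4i1, Cox5a and Cox5b, although the catalytic subunits of complex IV are encoded by mitochondrial DNA.

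Type 2 conventional dendritic cells (cDC2) of the spleen were profiled by mRNA sequencing in 9 libraries, 3 per group, all from C57BL/6 mice that carry Clec9a-Cre/Cre and Rosa-tdTomato/tdTomato. Cells were sorted as live, single, non-autofluorescent cells positive for MHCII, CD11c and CD11b, and divided by the tdTomato label (TOM). The groups were TOM+ cDC2 and TOM- DC2 of postnatal day 8, and TOM+ cDC2 of adult mice, of which 1 library came from mice of 9 weeks and 2 from mice of 8 weeks. Cre is driven by the Clec9a promoter, so the label marks cells with a history of Clec9a expression, and young spleens were pooled to obtain enough cells. The study describes the libraries of a group as biological replicates, the labels do not name the animals or pools behind each, and p-values measure the spread between these samples.

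The respiratory chain sits in the inner mitochondrial membrane. Complex I takes electrons from NADH and complex II takes them from succinate, complex III passes them to cytochrome c, and complex IV hands them to oxygen. Complexes I, III and IV pump protons, and complex V, the ATP synthase, uses the proton gradient to make ATP. Complex II is made from nuclear genes alone, whereas the other complexes also hold subunits encoded by mitochondrial DNA. Those mitochondrial genes (13 listed) were not analysed here.

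The libraries held 12783252 to 22809401 reads assigned to genes. Reads with several genomic positions made up 10.44 to 10.85% of reads in the adult libraries and 12.68 to 13.41% in the young ones. The summed level of 9 cDC2 and gate genes was 17340 to 18800 TPM in the young and 29451 to 31529 TPM in adult libraries. TPM is RSEM's level, scaled for transcript length and depth. H2-Ab1 made up most of these sums, at 15674 to 16893 TPM and 27691 to 29642 TPM. Of the 9 genes, 2 were higher and 6 lower in the young in each age comparison, by the edgeR test described below. Among markers of other cells, erythroid genes summed to 1173 TPM in replicate 1 of TOM- DC2 and to 1.39 to 120 TPM elsewhere, and neutrophil genes to 14.0 TPM in that library and at most 0.94 TPM elsewhere. Markers of red pulp macrophages summed to 90.6 to 114 TPM in young TOM+ cDC2, 133 to 179 TPM in TOM- DC2 and 54.1 to 57.6 TPM in adult cells, with 2 of 4 higher and 1 lower in the comparison of TOM+ cells and 3 of 4 higher in TOM- DC2. Monocyte markers summed to 262 to 290 TPM, 206 to 251 TPM and 179 to 203 TPM, with 2 of 4 higher in the comparison of TOM+ cells and none in TOM- DC2. B cell markers summed to 60.9 to 80.7 TPM in the young and 41.1 to 53.8 TPM in the adult libraries. The part of these cells in the results below was not tested, and without that library 51 rather than 42 respiratory chain genes were higher in TOM- DC2 than in adult cells.

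In both young populations, respiratory chain genes took a larger share of the measured RNA than in adult cDC2, in every complex. Summed over the 73 core and accessory subunits, the level was 22223, 24415 and 23243 TPM in young TOM+ cDC2, 21728, 24202 and 22718 TPM in young TOM- DC2, and 16267, 16491 and 15778 TPM in adult TOM+ cDC2. These subunits thus made up 2.33% of all TPM in young TOM+ cDC2, 2.29% in young TOM- DC2 and 1.62% in adult cells. Every young library lay above every adult one, and the 2 young groups overlapped. The median tested gene was also higher in the young on this scale. Its log2 fold change over adult, on log2(TPM + 0.1), was 0.17 in TOM+ and 0.22 in TOM- cells. For the tested respiratory chain genes these medians were 0.51 and 0.50. In such bulk samples, more cells that express a gene and more RNA per cell cannot be told apart.

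By complex, the mean of the summed levels in young TOM+ cDC2 was 1.45 times the adult mean for complex I, 1.41 for complex II, 1.41 for complex III, 1.40 for complex IV and 1.48 for complex V. In young TOM- DC2 the same ratios were 1.44, 1.40, 1.40, 1.38 and 1.42. Complex V had the highest sum, 7496 ± 224 TPM in young TOM+ cDC2 against 5074 ± 126 TPM in adult cells (SD, n = 3), and complex II the lowest, 954 ± 26.3 against 678 ± 26.1 TPM. The complexes therefore stood in the same order in all 3 groups (V, I, IV, III, II) and the young and adult libraries did not overlap in any of them.

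**Figure D1:**
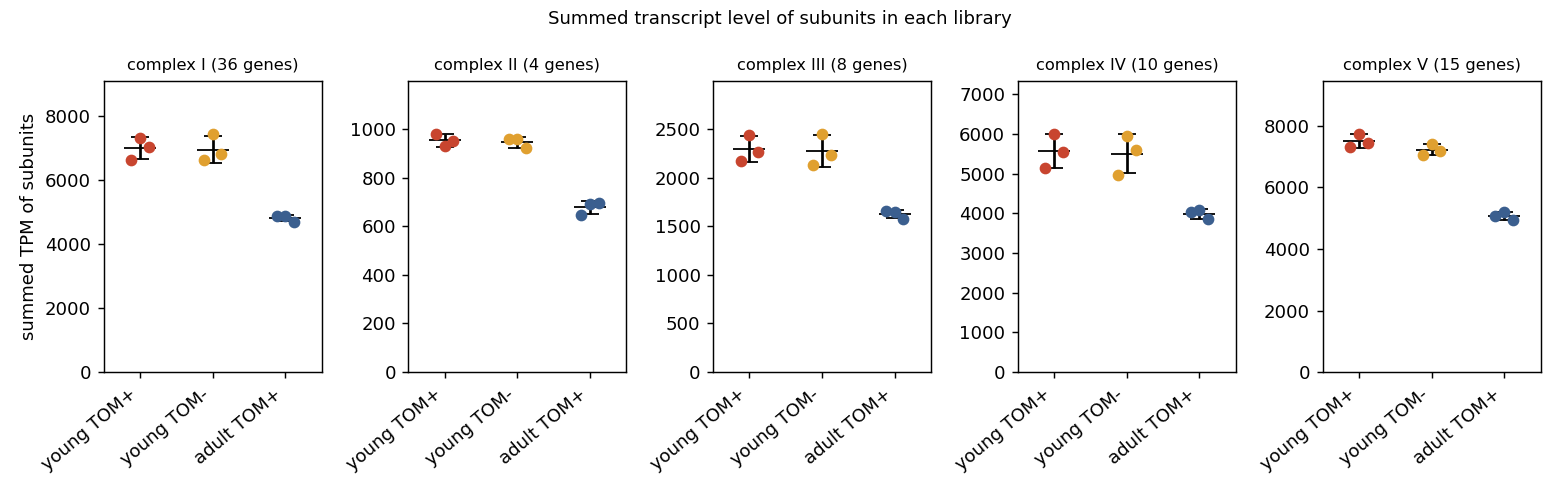
Summed TPM of the core and accessory subunits of each complex (y axes, each starting at 0) in the 3 libraries of each group, with points for libraries and bars for the mean and SD. Young libraries lie above adult libraries in all 5 panels, and young TOM+ cDC2 and TOM- DC2 overlap in all 5.

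Gene by gene, differences were tested on read counts with edgeR's quasi-likelihood test, over the 14452 genes whose count averaged 1 or more, of which 89 were respiratory chain genes. A gene was called at an adjusted p under 0.05, and log2 fold changes (log2FC) are of counts scaled by TMM, a factor that sets most genes level between libraries. The 5 not tested were Ndufs5, Cox4i2, Cox7b2, Cox8b and Cox8c.

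Between young and adult TOM+ cDC2, which asks what age changes in cells with the same label, 53 of the 89 genes were higher in the young and 2 were lower. Over all tested genes, 21.0% were higher and 19.5% lower. The median log2FC was 0.38 for the respiratory chain genes and 0.05 for all genes. By complex, 27 of 44 genes of complex I were higher, 3 of 6 of complex II, 5 of 8 of complex III, 7 of 14 of complex IV and 11 of 17 of complex V, with median log2FC of 0.37, 0.21, 0.41, 0.36 and 0.43. Past the fold the study uses as well, a log2FC of 1, stood 1 respiratory chain gene that was higher, Cox6b2, and none that was lower, where 5.96% of all genes were higher and 6.86% lower. Without replicate 2 of young TOM+ cDC2, 35 genes were called higher.

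Between young TOM- DC2 and adult TOM+ cDC2, 42 of the 89 were higher and 2 lower, beside 19.4% and 16.9% of all genes. This comparison uses the same adult libraries as the one before. Counts higher by complex were 21 of 44, 3 of 6, 5 of 8, 5 of 14 and 8 of 17, with median log2FC of 0.34, 0.21, 0.34, 0.27 and 0.34. Past a log2FC of 1 stood again Cox6b2 alone, higher, where 6.50% of all genes were higher and 4.78% lower.

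**Figure D2:**
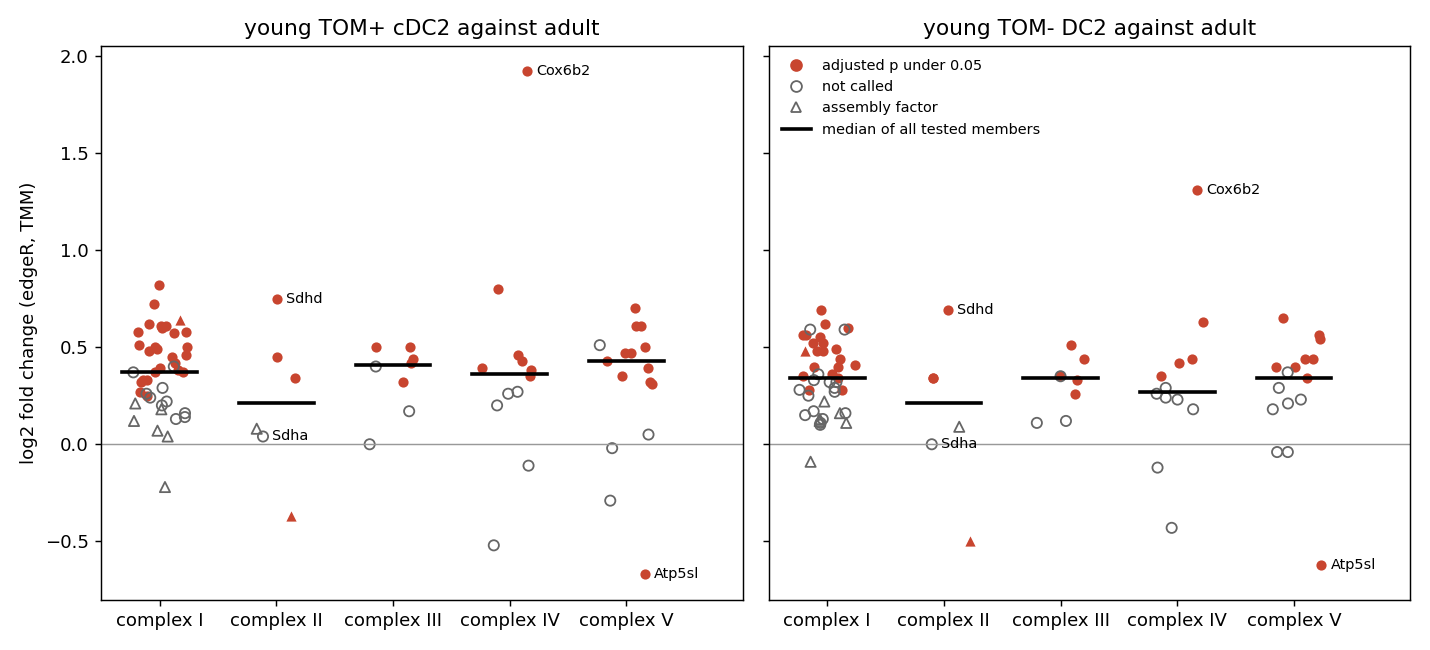
Log2FC (y axis) of the 85 respiratory chain genes whose count averaged 10 or more, by complex, for young TOM+ cDC2 and young TOM- DC2 against the same adult libraries. Filled points passed an adjusted p of 0.05, triangles are assembly factors and bars are the median of all tested members. Most points lie above 0, Cox6b2 stands highest at 1.92 and 1.31, and Atp5sl lowest at -0.67 and -0.62.

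Between the 2 young populations, which asks whether cells with and without Clec9a history differ at the same age, no respiratory chain gene was called by edgeR's quasi-likelihood test, beside 0.125% of all genes higher in TOM+ cDC2 and 1.47% lower. DESeq2 and limma also called 0, and 2 of the 89 had an unadjusted p under 0.05 with edgeR. Median log2FC lay between 0.02 and 0.06 in the 5 complexes. The young libraries carry numbers in pairs, and with that pairing as a block 1 gene, Cox6b2, was higher in TOM+ cDC2, beside 2.23% of all genes higher and 4.34% lower.

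By class, 15 of 21 core subunits (71.4%) were higher in young TOM+ than adult TOM+ cDC2, 35 of 51 tested accessory subunits (68.6%) and 1 of 9 assembly factors (11.1%), beside 21.0% of all genes. Of the assembly factors 1 was lower, beside 19.5% of all genes, and no core or accessory subunit. Median log2FC was 0.35, 0.45 and 0.08, and in TOM- DC2 against adult 0.28, 0.40 and 0.12. The summed level of the assembly factors was 234 ± 15.1 TPM in young TOM+ cDC2, 236 ± 19.2 TPM in young TOM- DC2 and 223 ± 1.04 TPM in adult cells (SD, n = 3), so these groups overlapped. The difference between the classes was not tested.

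Complex II has 4 subunits: Sdha, which binds FAD and oxidises succinate, Sdhb, which holds the iron-sulfur clusters, and Sdhc and Sdhd, which anchor the enzyme in the membrane. Sdhd, at chr9:50596340-50603849, measured 281, 268 and 280 TPM in young TOM+ cDC2, 268, 287 and 261 TPM in young TOM- DC2, and 149.99, 149 and 154 TPM in adult cells. Its log2FC against adult was 0.75 ± 0.08 (SE, n = 3, edgeR adjusted p = 2e-05) in TOM+ cDC2 and 0.69 ± 0.08 (adjusted p = 4.5e-05) in TOM- DC2. All young libraries stood above all adult ones.

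Sdha, at chr13:74322255-74350240, measured 274, 237 and 249 TPM in young TOM+ cDC2, 270, 243 and 244 TPM in young TOM- DC2, and 199, 239 and 239 TPM in adult cells. The lowest young library, at 237 TPM, lay below the 2 higher adult ones, with a log2FC of 0.04 ± 0.08 (edgeR adjusted p = 0.74) for TOM+ cDC2 and 0.00 ± 0.08 (adjusted p = 0.99) for TOM- DC2. Sdhb, at 286, 280 and 286 TPM in young TOM+ cDC2 and 200, 211 and 212 TPM in adult cells, rose by a log2FC of 0.34 ± 0.08 (adjusted p = 0.0045). Sdhc, at 140.0, 143 and 137 TPM against 99.2, 92.1 and 89.8 TPM, rose by 0.45 ± 0.09 (adjusted p = 0.0012). The catalytic flavoprotein was thus the 1 subunit of the 4 that was not called, and the anchors and the iron-sulfur subunit were.

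Set against each other within a library, Sdhd was at 1.10 ± 0.0583 times the TPM of Sdha in young TOM+ cDC2, 1.08 ± 0.0965 times in young TOM- DC2 and 0.674 ± 0.0701 times in adult cells (SD, n = 3). The adult ratios ran from 0.623 to 0.754 and the young ones from 0.992 to 1.18, without overlap. This pair was chosen after its values were seen, and a 2-sided exact permutation test gave p = 0.1 for each age comparison, the smallest that 3 against 3 libraries allow. Sdhaf1, an assembly factor that helps insert the iron-sulfur clusters into Sdhb, went the other way, with 69.1, 56.4 and 52.7 TPM in young TOM+ cDC2, 69.8, 47.5 and 48.9 TPM in young TOM- DC2, and 76.6, 63.1 and 71.4 TPM in adult cells. The TPM of the groups overlapped, and on the count scale it was lower by a log2FC of -0.37 ± 0.13 (edgeR adjusted p = 0.041) in TOM+ and -0.50 ± 0.13 (adjusted p = 0.011) in TOM- cells. The first of these calls was lost in 6 of 22 alternative settings, among them when replicate 2 or 3 of young TOM+ cDC2 or replicate 1 or 3 of the adult cells was left out. The second was lost in 2, both on log2 TPM.

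In complex IV, Cox6b2 had the largest log2FC among the genes called in either age comparison. The Cox6b subunit lies at the contact between the monomers of the complex IV dimer. Cox6b1 is the form of most tissues, and Cox6b2 is known as the testis form. Cox6b2, at chr7:4751792-4753094, measured 43.5, 57.5 and 52.2 TPM in young TOM+ cDC2, 29.7, 35.6 and 36.9 TPM in young TOM- DC2, and 10.4, 13.8 and 10.2 TPM in adult cells. The 3 groups did not overlap, with young TOM+ highest and adult lowest. Its log2FC against adult was 1.92 ± 0.20 (SE, n = 3, edgeR adjusted p = 1.3e-05) in TOM+ cDC2 and 1.31 ± 0.20 (adjusted p = 0.00029) in TOM- DC2, and both calls held in all 22 alternative settings.

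Between the young groups Cox6b2 differed by a log2FC of 0.61 ± 0.17 (edgeR adjusted p = 0.15), and with the pairing as a block by 0.61 ± 0.13 (adjusted p = 0.0079). Cox6b1, at chr7:30616971-30626114, was far more abundant, with 663, 772 and 703 TPM in young TOM+ cDC2, 620, 743 and 681 TPM in young TOM- DC2, and 494, 550 and 463 TPM in adult cells. It was higher in young TOM+ cDC2 by a log2FC of 0.39 ± 0.12 (adjusted p = 0.023), and in TOM- DC2 by 0.29 ± 0.12 (adjusted p = 0.081), which did not pass. The first call was lost in 6 of 22 alternative settings, among them the gene length offset and leaving out replicate 2 or 3 of young TOM+ cDC2 or replicate 1 or 3 of the adult cells, and the second value passed in 5, among them the replicate block and leaving out replicate 1 of TOM- DC2. The ratio of Cox6b2 to Cox6b1 in TPM was 0.0715 ± 0.00508 in young TOM+ cDC2, 0.05 ± 0.00366 in young TOM- DC2 and 0.0227 ± 0.0021 in adult cells (SD, n = 3). These ratios did not overlap between any groups, with p = 0.1 in each 2-sided exact permutation test, the smallest possible, and the pair was chosen after its values were seen.

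**Figure D3:**
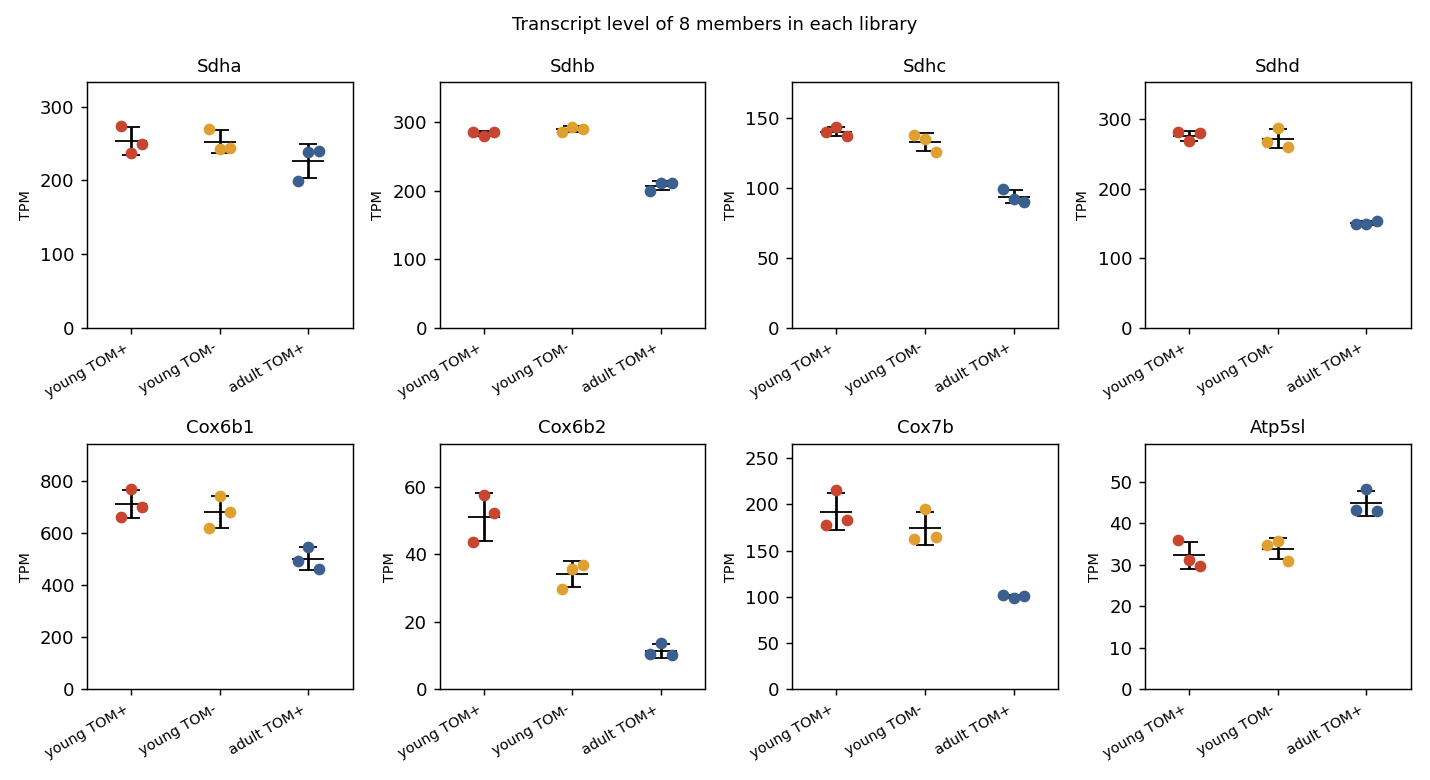
TPM (y axes, each starting at 0) of the 4 complex II subunits, the 2 Cox6b forms, Cox7b and Atp5sl in the 3 libraries of each group, with points for libraries and bars for the mean and SD. Sdhd, Sdhb, Sdhc, Cox6b2 and Cox7b lie lower in all 3 adult libraries, Sdha differs little, and Atp5sl lies higher in adult cells.

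The promoters of these pairs are shown because the genes of each pair sit in 1 complex and differed in their response. The sequences are from RefSeq (GRCm38.p6, the assembly also called mm10), each 300 bases from 250 before to 50 after an annotated start, read 5′ to 3′ on the gene's strand, which is the minus strand for all 4. Capitals mark matches to 7 short motifs searched on both strands: the ETS core CCGGAAG, the NRF1 core GCGCATGC, the YY1 core AAGATGGC, the SP/KLF box GGGCGG, the CCAAT box CCAAT, the TATA box TATAAA and the E-box CACGTG.
Sdha, chr13:74350191-74350490: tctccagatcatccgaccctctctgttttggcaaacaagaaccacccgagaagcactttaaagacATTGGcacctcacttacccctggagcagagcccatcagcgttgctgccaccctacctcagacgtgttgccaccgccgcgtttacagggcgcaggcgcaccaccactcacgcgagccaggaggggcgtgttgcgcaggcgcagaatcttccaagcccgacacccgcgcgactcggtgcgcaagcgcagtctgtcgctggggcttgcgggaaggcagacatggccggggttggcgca
Sdhd, chr9:50603800-50604099: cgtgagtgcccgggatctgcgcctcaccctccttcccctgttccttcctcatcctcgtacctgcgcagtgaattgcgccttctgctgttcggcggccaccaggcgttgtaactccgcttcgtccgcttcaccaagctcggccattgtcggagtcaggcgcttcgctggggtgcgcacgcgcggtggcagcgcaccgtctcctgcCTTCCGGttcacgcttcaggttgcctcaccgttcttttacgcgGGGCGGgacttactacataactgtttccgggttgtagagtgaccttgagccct
Cox6b1, chr7:30626065-30626364: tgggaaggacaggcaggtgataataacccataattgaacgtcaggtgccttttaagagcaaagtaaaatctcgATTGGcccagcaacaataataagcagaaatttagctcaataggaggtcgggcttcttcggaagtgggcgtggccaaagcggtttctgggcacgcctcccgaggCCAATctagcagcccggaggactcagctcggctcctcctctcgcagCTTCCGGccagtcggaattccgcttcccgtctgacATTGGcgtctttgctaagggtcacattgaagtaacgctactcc
Cox6b2, chr7:4753045-4753344: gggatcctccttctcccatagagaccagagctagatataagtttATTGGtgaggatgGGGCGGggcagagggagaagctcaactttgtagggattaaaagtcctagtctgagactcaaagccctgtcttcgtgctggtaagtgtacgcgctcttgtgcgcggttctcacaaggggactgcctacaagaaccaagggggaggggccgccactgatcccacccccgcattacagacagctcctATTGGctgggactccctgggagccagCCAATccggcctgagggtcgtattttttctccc
Sdhd and Cox6b1 each hold the ETS core, and Sdha and Cox6b2 do not. The CCAAT box is in Sdha, Cox6b1 and Cox6b2, and the SP/KLF box in Sdhd and Cox6b2.

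Over the 78 respiratory chain genes with a promoter in the table, the ETS core was in 18 (23.1%), against 9.14% of 27025 promoters of all genes and 17.2% of the 10695 of tested genes. The NRF1 core, named for a regulator of mitochondrial genes, was in 12 (15.4%), against 2.80% of all and 5.21% of tested genes. The YY1 core was in 10 (12.8%), against 2.87% and 4.46%. The SP/KLF box was in 46.2% of the respiratory chain promoters and 61.9% of those of tested genes, the CCAAT box in 44.9% and 38.6%, the TATA box in 8.97% and 7.46%, and the E-box in 8.97% and 9.92%. A match describes these letters in this window and was not tested for binding.

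Among the other subunits of complex IV, Cox4i1, the most abundant subunit of the complex in young cells, measured 891, 964 and 951 TPM in young TOM+ cDC2 and 674, 686 and 658 TPM in adult cells, with a log2FC of 0.35 ± 0.09 (edgeR adjusted p = 0.011). Cox5a, its partner in the early assembly, had a log2FC of 0.38 (adjusted p = 0.013) and Cox5b, which binds zinc, 0.26 (adjusted p = 0.13). The call of Cox4i1 was lost in 3 of 22 alternative settings: the gene length offset and leaving out replicate 2 or 3 of young TOM+ cDC2. That of Cox5a was lost in 2, the gene length offset and leaving out replicate 2 of young TOM+ cDC2. Cox5b passed in 5, among them the replicate block and limma on log2 TPM. Cox7b, a small subunit coded on the X chromosome, had the largest log2FC of the core and accessory subunits of the complex, although its level was the lowest of them. It measured 178, 216 and 183 TPM in young TOM+ cDC2, 162, 195 and 165 TPM in young TOM- DC2, and 102, 98.8 and 101 TPM in adult cells. Its log2FC was 0.80 ± 0.12 (adjusted p = 0.00022) in TOM+ and 0.63 ± 0.12 (adjusted p = 0.0013) in TOM- cells, and no young library fell as low as an adult one.

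Among isoform families, the ubiquitous form was expressed and the muscle or testis form was near 0, apart from Cox6b2. Cox6a1 reached 886 TPM and its muscle form Cox6a2 1.11 TPM in young TOM+ cDC2 (means). Cox7a2 reached 231 TPM and its muscle form Cox7a1 0.967 TPM. Cox4i2, Cox7b2 and Cox8c had 0 counts in all 9 libraries, and Cox8b had 1 count in 1 library. Ndufa4l2, a relative of Ndufa4 that is known to respond to hypoxia, had 6, 3 and 2 counts in young TOM+ cDC2, 4, 0 and 0 in TOM- DC2 and 0 in all adult libraries. It was not called in young TOM+ cDC2 against adult cells (edgeR adjusted p = 0.085). It passed there in 3 of the 20 alternative settings that tested it, among them leaving out replicate 1 of TOM- DC2.

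Among the ubiquitous forms of these families, Cox7a2 was higher in young TOM+ cDC2 by a log2FC of 0.43 (edgeR adjusted p = 0.027), Cox6a1 had 0.20 (adjusted p = 0.19) and Cox8a 0.27 (adjusted p = 0.11). The call of Cox7a2 was lost with the gene length offset and without replicate 2 or 3 of young TOM+ cDC2 or replicate 2 or 3 of the adult cells. Cox6a1 and Cox8a passed with the replicate block (adjusted p = 0.0027 and 0.0017) and with limma, and both passed without the young libraries numbered 81, Cox8a also without replicate 1 of TOM- DC2 alone. Ndufa4, named as a complex I gene and now counted with complex IV, measured 429, 537 and 462 TPM in young TOM+ cDC2 and 358, 329 and 318 TPM in adult cells, with a log2FC of 0.37 (adjusted p = 0.037). That call was lost in 7 of 22 alternative settings: with the gene length offset, alone or with the block, and without replicate 2 or 3 of young TOM+ cDC2, replicate 3 of TOM- DC2, or replicate 2 or 3 of the adult cells. Cox7a2l, of the same family as Cox7a2, had a log2FC of -0.11 (adjusted p = 0.38).

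In complex I, 25 of 35 tested subunits were higher in young TOM+ than adult TOM+ cDC2 and none was lower, and all 35 had a positive log2FC, from 0.13 to 0.82. The core subunits hold the flavin and the iron-sulfur clusters. Of these, Ndufs1, Ndufs3, Ndufs8, Ndufv1 and Ndufv2 were higher, with log2FC of 0.39, 0.27, 0.48, 0.37 and 0.38, whereas Ndufs7 (0.14, edgeR adjusted p = 0.18) did not pass. The call of Ndufs3 (adjusted p = 0.042) was lost in 17 of 22 alternative settings, among them DESeq2, the replicate block, the gene length offset and leaving out any 1 library other than replicate 2 of young TOM+ cDC2 or replicate 1 of TOM- DC2. Ndufs8 measured 281, 273 and 271 TPM in young TOM+ cDC2, 278, 280 and 279 TPM in young TOM- DC2, and 172, 176 and 186 TPM in adult cells (adjusted p = 0.00028 and 0.00036). Ndufs7 measured 188, 181 and 173 TPM against 145, 155 and 148 TPM in adult cells, which did not overlap either but lay closer.

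The largest called differences among accessory subunits of complex I between young and adult TOM+ cDC2 were those of Ndufb4, Ndufa12, Ndufa9, Ndufc1 and Ndufv3. Ndufa12, added late in assembly, measured 168, 197 and 188 TPM in young TOM+ cDC2, 162, 197 and 177 TPM in TOM- DC2, and 103, 91.4 and 96.8 TPM in adult cells. It was higher by a log2FC of 0.72 ± 0.14 (edgeR adjusted p = 0.0013) and 0.60 ± 0.14 (adjusted p = 0.0052). Ndufv3, a subunit of the NADH-binding arm, measured 153, 185 and 174 TPM, 170, 189 and 174 TPM, and 97.7, 95.1 and 104 TPM in the same order of groups, with log2FC of 0.61 ± 0.10 (adjusted p = 0.00031) and 0.62 ± 0.10 (adjusted p = 0.0003). Neither gene's young and adult libraries overlapped.

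Ndufa9, next to the quinone site, had 192, 204 and 209 TPM in young TOM+ cDC2, 182, 186 and 178 TPM in TOM- DC2, and 115, 122 and 123 TPM in adult cells, with log2FC of 0.62 ± 0.08 (edgeR adjusted p = 0.00011) and 0.44 ± 0.08 (adjusted p = 0.0015). Ndufa1, coded on the X chromosome, was the complex I gene highest in TOM- DC2 among those called, with a log2FC of 0.69 ± 0.17 (adjusted p = 0.0075), and 205, 291 and 243 TPM against 140.0, 137 and 132 TPM in adult cells. Ndufb4 had the largest log2FC of the called complex I genes in TOM+ cDC2, 0.82 ± 0.24 (adjusted p = 0.017), from uniquely placed reads that were only 7.87% of its estimated count, and its call was lost with that estimated count (0.35, adjusted p = 0.076). Of the 7 complex I assembly factors, 1 was higher, Ndufaf6, with a log2FC of 0.64 (adjusted p = 0.011) in TOM+ and 0.48 (adjusted p = 0.048) in TOM- cells, and Ndufaf7 had -0.22 (adjusted p = 0.055).

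In complex III, 5 of the 8 subunits named Uqcr were higher in both age comparisons. Uqcrc1 and Uqcrc2, the large core proteins that face the matrix, had log2FC of 0.42 (edgeR adjusted p = 0.0011) and 0.32 (adjusted p = 0.0043) in young TOM+ cDC2. Uqcrc1 measured 372, 382 and 351 TPM in young TOM+ cDC2, 360, 345 and 352 TPM in TOM- DC2, and 247, 258 and 246 TPM in adult cells, without overlap. The small subunits Uqcr10 and Uqcr11 both had a log2FC of 0.50 (adjusted p = 0.007 and 0.0093). Uqcrfs1, the Rieske iron-sulfur protein, had 0.17 (adjusted p = 0.13), and Uqcrh, the hinge protein that binds cytochrome c1, had 0.00 (adjusted p = 0.98), with 233, 256 and 264 TPM in young TOM+ cDC2 and 243, 240.0 and 214 TPM in adult cells, which overlapped.

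In complex V, the catalytic head is built of Atp5a1 and Atp5b, the central stalk of Atp5c1, Atp5d and Atp5e, and the membrane ring of subunit c, which is coded by Atp5g1, Atp5g2 and Atp5g3. Atp5b was the most abundant respiratory chain gene, with 1269, 1222 and 1233 TPM in young TOM+ cDC2, 1241, 1132 and 1197 TPM in TOM- DC2, and 836, 868 and 827 TPM in adult cells. It was higher by a log2FC of 0.43 ± 0.07 (edgeR adjusted p = 0.00057) and 0.34 ± 0.07 (adjusted p = 0.0033). Atp5a1 and Atp5c1 were higher in TOM+ cDC2 by 0.31 and 0.47 (adjusted p = 0.0098 and 0.00041), and Atp5d, of the same stalk as Atp5c1, was not called (0.05, adjusted p = 0.73). In TOM- DC2 Atp5c1 was called as well (0.40, adjusted p = 0.0014), and Atp5a1 (0.18, adjusted p = 0.1) and Atp5d (-0.04, adjusted p = 0.78) were not.

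Among the smaller subunits of complex V, Atp5k, which helps the enzyme dimerise, measured 207, 239 and 226 TPM in young TOM+ cDC2, 211, 240.0 and 207 TPM in TOM- DC2, and 136, 137 and 105 TPM in adult cells. Its log2FC was 0.70 ± 0.14 (edgeR adjusted p = 0.0015) and 0.65 ± 0.14 (adjusted p = 0.0028). Atp5o, the stalk protein through which oligomycin sensitivity is conferred, had log2FC of 0.61 and 0.56 (adjusted p = 0.00053 and 0.0011). Of the subunit c genes, Atp5g3 was called at 0.61 (adjusted p = 0.0026), with 592, 507 and 619 TPM against 280, 370.4 and 386 TPM in adult cells.

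The other subunit c genes, Atp5g1 and Atp5g2, were not called on unique counts (0.51, edgeR adjusted p = 0.11, and 0.51, adjusted p = 0.51). With RSEM's estimated counts they were, at 0.76 (adjusted p = 0.00012) and 0.49 (adjusted p = 0.0009). In TPM, Atp5g1 ran from 360 to 414 in young TOM+ cDC2 and from 198 to 206 in adult cells, and the groups did not overlap.

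Atp5sl, also called Dmac2 and known today as a factor in complex I assembly rather than a subunit of the synthase, was lower in young cells. It measured 36.0, 31.3 and 29.7 TPM in young TOM+ cDC2, 34.9, 35.7 and 31.0 TPM in TOM- DC2, and 43.3, 48.4 and 43.0 TPM in adult cells, without overlap of young and adult. Its log2FC was -0.67 ± 0.10 (edgeR adjusted p = 0.00025) and -0.62 ± 0.10 (adjusted p = 0.00053), and both calls held in all 22 alternative settings. Together with Sdhaf1 it made up the genes called lower.

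Many respiratory chain genes are short and have processed pseudogenes, copies of their mRNA scattered in the genome. STAR counted a read only where it fitted 1 place, whereas RSEM divides reads among the transcripts they match. Of 87 members with an estimated count of at least 50, 13 had a STAR count under 50% of the RSEM estimate. Annotated pseudogenes hold an exact copy of at least 1 window of 50 bases, the read length, of 12 of these 13 and of 23 of the other 74. The median share of such windows was 41.2% in the 13 and 0 in the others.

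The most affected were Atp5g2, with a mean of 5.44 unique counts against 2071 estimated, Atp5l with 20.7 against 2519, Cox7c with 35.0 against 1400, Ndufab1 with 20.2 against 833, and Ndufs5 with 0 against 59.3. Atp5l shared 68.5% of its windows with annotated pseudogenes, 12 in number. Cox7c changed sign: its log2FC in young TOM+ cDC2 was -0.52 (edgeR adjusted p = 0.14) on unique counts and 0.42 (adjusted p = 0.068) on estimated counts, and neither passed. For genes of this kind the values on either scale are uncertain. The totals differed little, with 53 genes higher and 3 lower on estimated counts in the comparison of TOM+ cells.

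**Figure D4:**
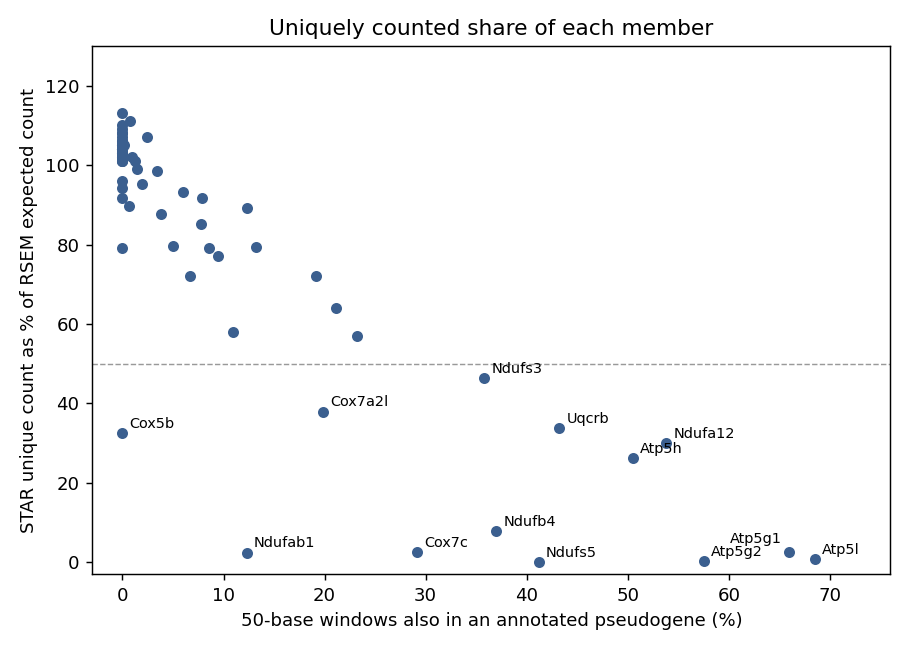
STAR unique count as a percent of the RSEM estimated count (y axis) against the percent of 50-base windows of the transcript that also occur in an annotated pseudogene (x axis), for 87 respiratory chain genes. The 13 genes under 50% are named; Cox5b is the 1 of them without such a window.

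Transcript length moved with the age comparison. The tested respiratory chain genes had a median length of 739 bases against 2662 for all tested genes, and 44 of the 89 were under 700 bases. Other genes of under 700 bases had a median log2FC of 0.07 in young TOM+ against adult cDC2, those of 700 to 1500 bases 0.14, and those of 3000 bases and over 0.00. Respiratory chain genes of under 700, 700 to 1500 and 1500 to 3000 bases had medians of 0.39, 0.45 and 0.31, each above the other genes of that length.

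With an offset that takes out each library's trend with gene length, fewer were called. In TOM+ cells 38 were higher and 5 lower, beside 19.8% and 20.7% of all genes, and in TOM- against adult cells 32 were higher and 3 lower, beside 18.8% and 18.1%. The 5 lower were Atp5sl, Sdhaf1, Ndufaf7, Cox7a2l and Cox7c. Median log2FC by complex fell to 0.20, 0.13, 0.25, 0.16 and 0.32 in TOM+ cells, beside 0.02 for all genes. In TOM- cells the medians were 0.20, 0.14, 0.18, 0.08 and 0.19, beside 0.05. Counts higher by complex were 19 of 44, 3 of 6, 5 of 8, 3 of 14 and 8 of 17 in TOM+ cells. In TOM- cells they were 16 of 44, 3 of 6, 4 of 8, 3 of 14 and 6 of 17. For complex IV this share (21.4%) was near that of all genes in both comparisons. In TOM+ cells the log2FC of Sdhd was 0.63, that of Cox6b2 1.69 and that of Cox7b 0.65, each still called.

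**Figure D5:**
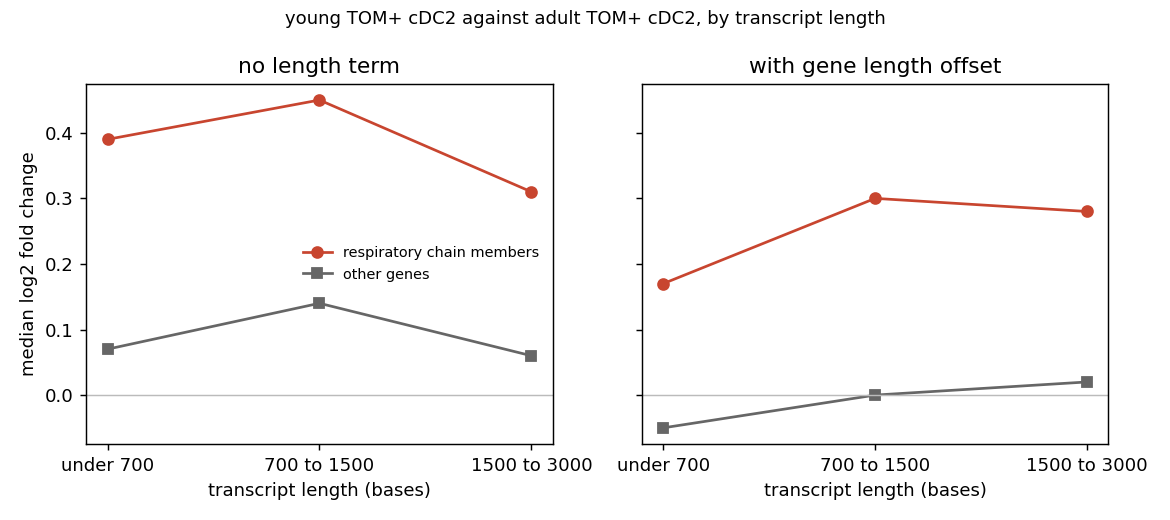
Median log2FC between young and adult TOM+ cDC2 (y axis) by transcript length (x axis, bases) for respiratory chain genes (circles) and other tested genes (squares), without and with the gene length offset. The respiratory chain genes lie above the others in each length class, and with the offset their medians are 0.17, 0.30 and 0.28.

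Genes that work with the chain were counted from lists of the same pathway, to be read beside 21.0% of all genes higher and 19.5% lower in TOM+ cells, and 19.4% and 16.9% in TOM- DC2. Cyc1, the cytochrome c1 subunit of complex III that the symbol rule leaves out, was higher in young TOM+ cDC2 (0.32, edgeR adjusted p = 0.016). Cytochrome c itself, Cycs, did not pass (0.46, adjusted p = 0.094). Its TPM was 149 in young TOM+, 136 in young TOM- and 90.9 in adult cells. All these lists were called on uniquely placed reads, and the share of such reads was not examined for their genes. Of 7 other complex I assembly genes 3 were higher and 1, Foxred1, lower, and of 23 tested assembly genes of complexes III and IV 5 were higher (21.7%), a share near that of all genes. Of 6 tested genes for the assembly or control of the ATP synthase 4 were higher, among them Atpif1, which blocks the enzyme when it runs backwards (0.56, adjusted p = 0.0019). In TOM- DC2 against adult, the counts in these 4 lists were 0 of 2, 3 of 7, 4 of 23 and 3 of 6 higher, with Foxred1 again lower.

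Upstream of the chain, 6 of 13 genes of the tricarboxylic acid cycle were higher in young TOM+ cDC2 and none lower, led by Fh1, which hydrates fumarate (0.89, edgeR adjusted p = 9.5e-06), and Idh3a (0.69, adjusted p = 3e-05). Mdh2, at 2010 TPM in young TOM+ and 1822 TPM in adult cells, was not called (0.01, adjusted p = 0.95). Of 5 genes that bring pyruvate into the mitochondrion 3 were higher, and of 18 glycolytic genes 6, among them Ldha (0.77, adjusted p = 3.3e-05). Gapdh and Eno1 were not called (adjusted p = 0.47 and 0.55). Their TPM was 75.0 and 198 in young TOM+ cDC2 and 33.3 and 79.6 in adult cells, so the 2 scales differed. In TOM- DC2 the counts were 5 of 13, 2 of 5 and 6 of 18.

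Genes for making mitochondria were mixed. Of 12 regulators of mitochondrial biogenesis 5 were higher in young TOM+ cDC2 and 3 lower. Tfam, which packs and transcribes mitochondrial DNA (0.45, edgeR adjusted p = 0.0018), and Polrmt, the mitochondrial RNA polymerase (0.62, adjusted p = 0.0031), were among the higher ones. The others were Ppargc1b (1.38, adjusted p = 0.046), Pprc1 (0.34, adjusted p = 0.0082) and Gabpa (0.30, adjusted p = 0.026). Esrra (-0.51, adjusted p = 0.0044), Gabpb1 (-0.36, adjusted p = 0.0037) and Ppargc1a were the lower ones. Ppargc1a, the coactivator known as a driver of oxidative metabolism, was at 0.0167 TPM in young TOM+ and 0.833 TPM in adult cells. Ppargc1b was at 1.04 and 0.363 TPM, so both genes were scarce in these cells. In TOM- DC2 3 were higher and 3 lower.

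Of 77 mitochondrial ribosomal proteins 52 were higher in young TOM+ cDC2, with a median log2FC of 0.38, as large as that of the respiratory chain genes. In TOM- DC2 39 were higher, with a median of 0.34. Of 84 tested cytosolic ribosomal proteins 18 were higher (21.4%, near the share of all genes) and 2 lower (median 0.21), and of 25 tested protein import genes 11 were higher and 2 lower (median 0.24). In TOM- DC2 these counts were 13 and 1, and 8 and 2. Of 15 cell cycle genes 14 were higher in both age comparisons, with medians of 1.15 and 1.00, so cell division genes moved with the respiratory chain, and their part in its difference was not tested. Between the young groups edgeR called none of the genes in these lists.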

How the data were processed

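The authors sorted dendritic cells, made cDNA with SMART-seq v4 and libraries with MicroPlex v2, sequenced single-end reads of 50 bases and aligned them to mm10 with STAR. The authors deposited, per library, STAR's unstranded gene counts, which leave out reads with several positions, and RSEM's expected counts and TPM, which divide such reads among transcripts; the versions of STAR and RSEM are not given in the sources used here. Lines of the count files that name no gene (26.14 to 31.63% of reads) were left out. STAR's strand-specific columns served only to check that the libraries keep no strand, and reads of 30 members whose span overlaps another RefSeq gene are uncertain.

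Counts of all 9 libraries were fitted with edgeR 4.0.16 (TMM, quasi-likelihood, genes whose count averaged 1 or more) in R 4.3.3, with Benjamini-Hochberg adjustment over all 14452 genes tested. The study used DESeq2. DESeq2 1.42.0 and limma 3.58.1 on log2(TPM + 1) and log2(TPM + 0.1) were alternatives, as were RLE and upper-quartile scaling, 2 other low-count filters, a fit of only the groups compared, expected counts (rounded), a gene length offset (lowess, span 0.3), and leaving out each library. Leaving out both young libraries numbered 81, and the block with the length offset, were added after seeing the data. On simulated counts with 200 genes changed 2-fold between young and adult TOM+ cDC2, edgeR recovered 190, with 9 false calls among the 14257 genes tested. Smaller changes, which most of those reported here are, were not simulated. The members, gene lists and tests were chosen with earlier results of these data known. Named genes are core subunits, isoform families, up to 2 called members in each direction per complex and comparison with an average count of at least 50, and members past a log2FC of 1. Ndufa9, Ndufc1, Uqcrh, Cox7c, Ndufaf6, Ndufaf7, Atp5l, Ndufab1, Ndufs5 and the genes named from the pathway lists were chosen after their values were seen.

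The deposited names carry the numbers 81, 91, 92 and 95. Same-numbered young libraries deviated together from their group means (r = 0.621, 0.333 and 0.426 across 11818 genes, which are not independent replicates), so the number was used as a block in an alternative fit. Same-numbered young and adult libraries did not (r = 0.012 to 0.081). Libraries of a group differed by more than sampling noise. Gene positions and promoters are from RefSeq, GRCm38.p6 (94 of 94 members found, 78 with a promoter, 1 per gene), and pseudogenes from GENCODE M21 on the same assembly. Values of some genes and markers are not reported here.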

Additional observations from a re-analysis of the deposited data

How the results depend on the processing

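In the comparison of young and adult TOM+ cDC2, the genes called higher ranged from 35 to 58 when 1 library was left out, against 53 with all, and those called lower from 1 to 3, against 2. Replicate 2 of young TOM+ cDC2 gave the 35 higher, and without it, without replicate 3 of that group or without replicate 3 of the adult cells only 1 was lower. Between young TOM- DC2 and adult cells, 30 to 51 were higher, against 42, and 2 lower throughout. Leaving out both young libraries numbered 81 gave 59 and 52 higher.

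With limma on log2(TPM + 1) or log2(TPM + 0.1), 73 and 74 genes were higher in the comparisons of TOM+ and TOM- cells with adult, and 1 was lower in each. With the pseudocount of 1, 4074 of all genes were higher and 1973 lower in the first comparison, against 3039 and 2822, and 4318 and 1597, against 2809 and 2438, in the second. The median of all genes moved from 0.05 to 0.10 and from 0.07 to 0.14. Complex I then had median log2FC of 0.50 in both comparisons with the pseudocount of 0.1. With either pseudocount, complex II had 0.32 or 0.33 in TOM+ and 0.35 in TOM- cells, and complex V 0.54 in TOM- cells.

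The gene length offset gave 5 lower in TOM+ cells, and medians of 0.20, 0.13, 0.25 and 0.16 for complexes I to IV there and 0.14 for complex II in TOM- cells. With the replicate block added to it, 5 and 4 were lower, and medians were 0.22, 0.12, 0.22 and 0.15 in TOM+ cells and 0.19 and 0.10 for complexes I and II in TOM- cells. The replicate block, alone or with the offset, called 1 gene in the young comparison, against 0. It gave 62 and 57 higher in the age comparisons, where the numbers do not pair young with adult samples. Causes were not tested, beyond what each setting removes.

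Of 2954 values of named genes under the alternatives, 2637 kept direction and call, 95 lost the call, 84 gained it, and 138 that were not called changed sign. No called value reversed. Depth limits the isoforms with under 10 counts and members whose reads fit several places.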
